A study of Rattus norvegicus with 48 samples.

Results

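The comparison set kidneys of FL rats against kidneys of F rats, both given only the vegetable oil carrier, which the labels call day 0. Its members are all arrays that the labels place in these groups, 4 for FL and 4 for F, 8 of the 48 arrays in the series. All rats were males, 12 weeks old in the sample labels. The strain names F, L, FL and LF are not explained in the labels, which give neither their origin nor any transgene. The other arrays, 4 per group, came from carrier kidneys of L and LF and from kidneys of all 4 strains after 7 or 10 days of indole-3-carbinol, 100 mg per kg and day by gavage. This compound of cabbage plants acts through its products on the aryl hydrocarbon receptor. The treatment protocol had 8 rats per group, and the labels leave unsaid if the RNA on an array came from 1 rat or from several, so p-values here measure the spread between arrays. Values are log2 signals, in which a difference of 1 is a doubling, of 8797 probe sets, and 7603 of these had exactly 1 gene symbol. The number of arrays limits the precision.

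The arrays looked alike as whole profiles. Array medians lay between 5.86 and 5.92 in F and between 5.74 and 5.93 in FL, and the correlation of 2 arrays ran from 0.989 to 0.992 within F, from 0.988 to 0.991 within FL and from 0.986 to 0.992 across the strains. Markers that define kidney were bright in both strains, with Umod, the uromodulin of the thick ascending limb, at 12.92 ± 0.0862 in F and 12.89 ± 0.0723 in FL (SD, n = 4). Lrp2, the protein uptake receptor megalin of the proximal tubule, stood at 11.99 ± 0.0183 and 11.93 ± 0.033.

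Some background helps with the genes that follow. The angiotensin converting enzyme Ace cuts angiotensin I to the vasoconstrictor angiotensin II and breaks down bradykinin, and in rat kidney it sits on the proximal tubule brush border and on vascular endothelium. Asns, Atf5 and Nupr1 belong to the genes that the transcription factor Atf4 switches on when cells lack amino acids or accumulate unfolded protein. Aldo-keto reductases of the Akr1b group reduce reactive aldehydes and sugars.

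Few genes separated FL from F. In limma's moderated test on the group means of all 48 arrays, with Benjamini-Hochberg adjustment over the whole table and a threshold of 0.05, 6 of 8797 probe sets (0.0682%) differed, 3 higher and 3 lower in FL. Ace, Pitpnm1 and Cyb5b were lower, and Asns, Nupr1 and Atf5 were higher. With the replicate number as a block, since array file names of one number share a stem, 11 probe sets passed, and all 6 of these genes were among them. With the arrays of FL and F alone, 1 passed, which was Ace. Over all probe sets 367 (4.17%) had an unadjusted p under 0.05, and 180 differed by over 0.5 on the log2 scale. In bulk tissue such as this, fewer cells of a type and less RNA per cell cannot be told apart.

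**Figure D1:**
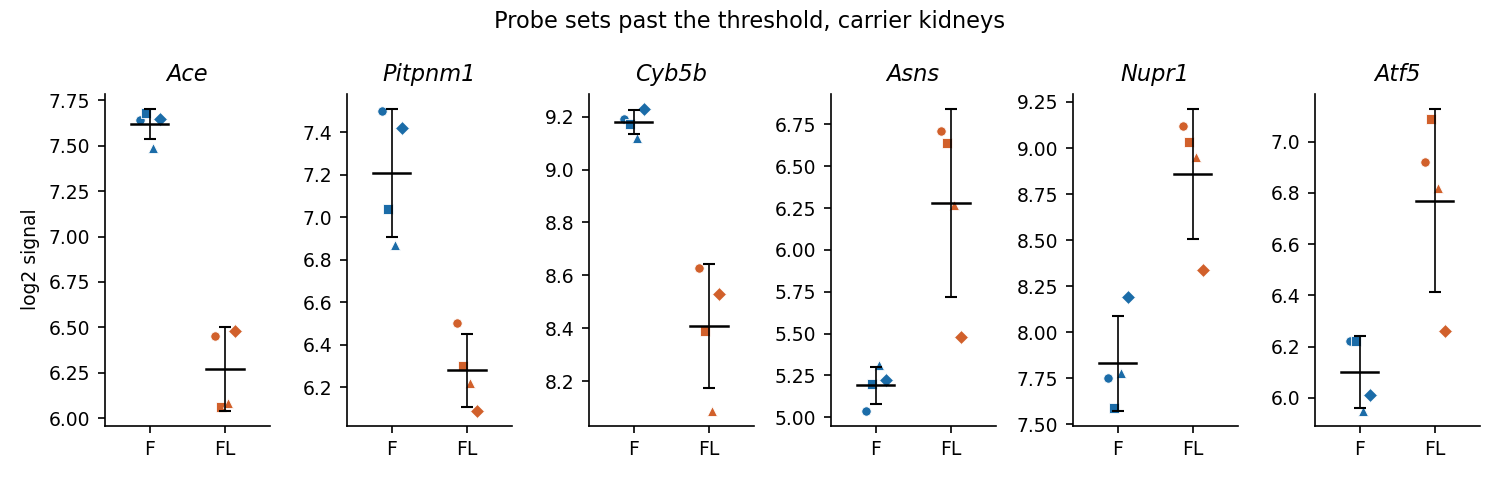
Log2 signal in carrier kidneys of F (blue) and FL (orange) for the 6 genes past the threshold; circles, squares, triangles and diamonds are replicates 1 to 4, the line is the mean and the bar 1 SD. In each panel the FL arrays lie on one side of the F arrays, and for Asns, Nupr1 and Atf5 the FL diamond (replicate 4) lies closest to F.

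Ace had the smallest p of all probe sets. Its log2 signal was 7.64, 7.68, 7.49 and 7.65 in the F arrays and 6.45, 6.06, 6.08 and 6.48 in the FL arrays, replicates 1 to 4 in turn. The groups did not overlap, and every FL array lay over 1 log2 unit below the lowest F array. The difference was -1.35 ± 0.158 (SE, 95% interval -1.67 to -1.03), a 2.54-fold lower signal in FL, with an adjusted p of 1.55e-06 in limma. In the 4 pairs of arrays that share a replicate number it was -1.19, -1.62, -1.41 and -1.17. These pairs are called runs here from the stems of array file names alone. Ace was the only gene past the threshold in all 17 settings tried, the 8 fits that each left out 1 array included.

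The lower Ace signal of FL was also there in kidneys that share no array with this comparison. After 7 days of indole-3-carbinol FL minus F was -1.03 ± 0.158 (adjusted p = 0.000329 in limma), where 58 of 8797 probe sets (0.659%) passed and 189 with the block. After 10 days it was -0.80 ± 0.158 (adjusted p = 0.0431), where 2 of 8797 (0.0227%) passed and 5 with the block. The 2 at day 10 were Ace and Pitpnm1. The day 10 call of Ace was lost without any one of FL replicates 2, 3 and 4 or F replicates 1, 2 and 3 (adjusted p between 0.0838 and 0.262) and with the arrays of these groups alone (adjusted p = 1). Its day 7 call held in all settings tried. FL arrays stayed between 5.77 and 6.64 on all days, whereas F arrays ran from 7.49 to 7.68 at day 0, from 6.95 to 7.48 at day 7 and from 6.45 to 7.34 at day 10. At day 10 the ranges of FL and F met, because the lowest F array (6.45) lay below the highest FL array (6.64). From day 0 the difference changed by 0.32 ± 0.224 to day 7 (adjusted p = 0.999) and by 0.54 ± 0.224 to day 10 (adjusted p = 0.957), neither past the threshold.

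In the other pair of strains Ace went the opposite way. Carrier kidneys of L had 6.08, 5.94, 6.27 and 5.78, close to FL, and those of LF had 7.12, 7.40, 7.05 and 7.11, between FL and F. LF minus L was 1.15 ± 0.158 (adjusted p = 3.36e-05), in a comparison where 17 of 8797 probe sets (0.193%) passed and 30 with the block. The test of the difference between both strain pairs gave -2.50 ± 0.224 for Ace (adjusted p = 7.32e-10). It passed for 2 of 8797 probe sets (0.0227%), 1 in each direction, and for 17 with the block. The other one was Ndrg1, a growth and stress response gene, at 0.74 ± 0.132 (adjusted p = 0.00682), a call lost with the arrays of the 4 compared groups alone (adjusted p = 0.0738). Ndrg1 differed between LF and L (-0.80 ± 0.0934) and stood at -0.05 ± 0.0934 between FL and F.

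**Figure D2:**
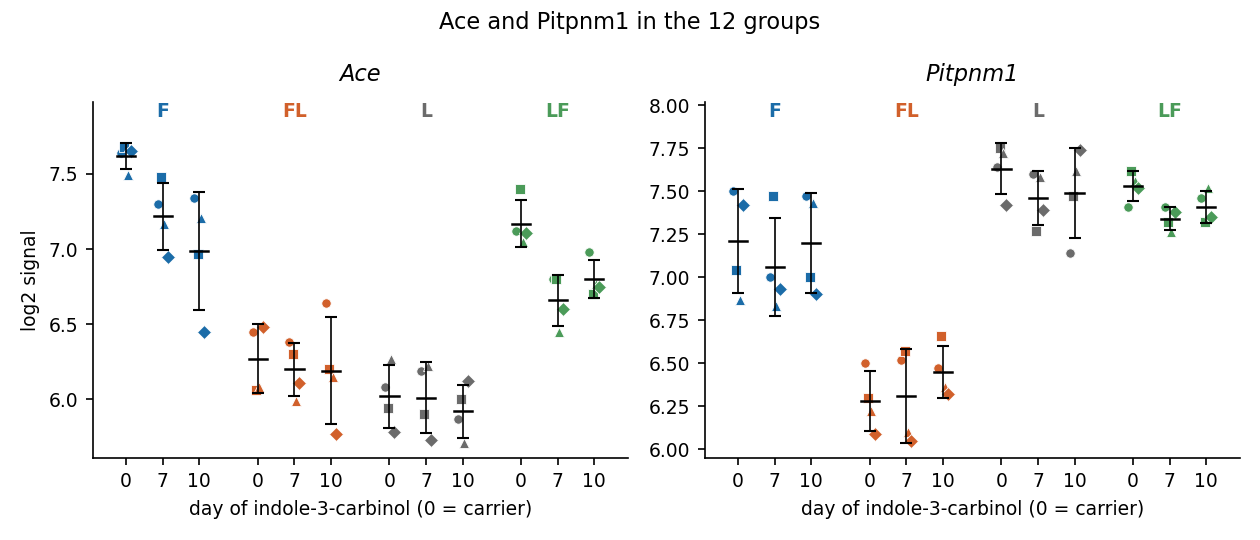
Log2 signal of Ace (left) and Pitpnm1 (right) in the 12 groups, by strain (F blue, FL orange, L grey, LF green) and day; symbols are replicates 1 to 4, lines means and bars 1 SD. The Ace means of F and LF lie above those of FL and L on each day, whereas Pitpnm1 is low only in the 3 FL groups.

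Other genes of the angiotensin and kinin system were not past the threshold. Of 17 measured members of a list of 31, 0 were higher and 1, Ace, was lower, beside 0.0682% of all probe sets past the threshold. The median difference of the members was -0.065, beside -0.040 over all probe sets. Agt, the precursor of the angiotensin peptides, stood at 0.31 ± 0.142 (adjusted p = 0.995). Its signal was 7.62, 7.30, 7.60 and 7.34 in F and 8.07, 7.83, 7.40 and 7.79 in FL, so the groups overlapped. Agtr1a, the main receptor for angiotensin II, stood at -0.06 ± 0.205, Atp6ap2, an accessory protein of the vacuolar proton pump, at -0.21 ± 0.0811, and Bdkrb1, the inducible kinin receptor, at 0.23 ± 0.169 (adjusted p = 0.995 for each).

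Genes that lie near Ace on chromosome 10 did not share its difference. In the gene order of the reference annotation with noncoding genes counted, the measured genes among the 10 on each side of Ace all lay on the same side and were Kcnh6 (-0.02 ± 0.122), Strada (-0.15 ± 0.142), Ccdc47 (-0.15 ± 0.122) and Ftsj3 (0.06 ± 0.121), all with an adjusted p of 0.995. Kcnh6 is a potassium channel, Strada an activator of the kinase Stk11, Ccdc47 a membrane protein of the endoplasmic reticulum and Ftsj3 a factor of ribosome assembly. Counting only protein-coding or measured genes, the 10 on the other side held Marchf10 (-0.11 ± 0.104) and Efcab3 (-0.02 ± 0.097), also with an adjusted p of 0.995. Within 40 places on each side by this second count, 34 other genes were measured, and 0 passed limma's test or had an unadjusted p under 0.05. Over all probe sets the shares were 0.0682% and 4.17%, so counts of 0 among 34 genes are near them. The lowest of the 34 differences was -0.19 and the median -0.025. The one furthest above 0 was Cacng5, a calcium channel subunit 36 places from Ace, singled out after its values were seen. Cacng5 was at 0.39 ± 0.218 here (adjusted p = 0.995), at 0.94 ± 0.218 after 7 days (adjusted p = 0.0308) and at 0.96 ± 0.218 after 10 days (adjusted p = 0.132). The day 7 call was lost with the arrays of these groups alone (adjusted p = 0.103) and without any one array other than replicate 3 of either strain (0.0678 to 0.0935). Between LF and L it differed the other way, by -1.06 ± 0.218 (adjusted p = 0.01), a call lost with these groups alone (0.501) and without LF replicate 1 (0.124) or 4 (0.078) or L replicate 1 (0.115) or 2 (0.0512). Its own test of the difference between the strain pairs gave 1.46 ± 0.309 (adjusted p = 0.0713).

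**Figure D3:**
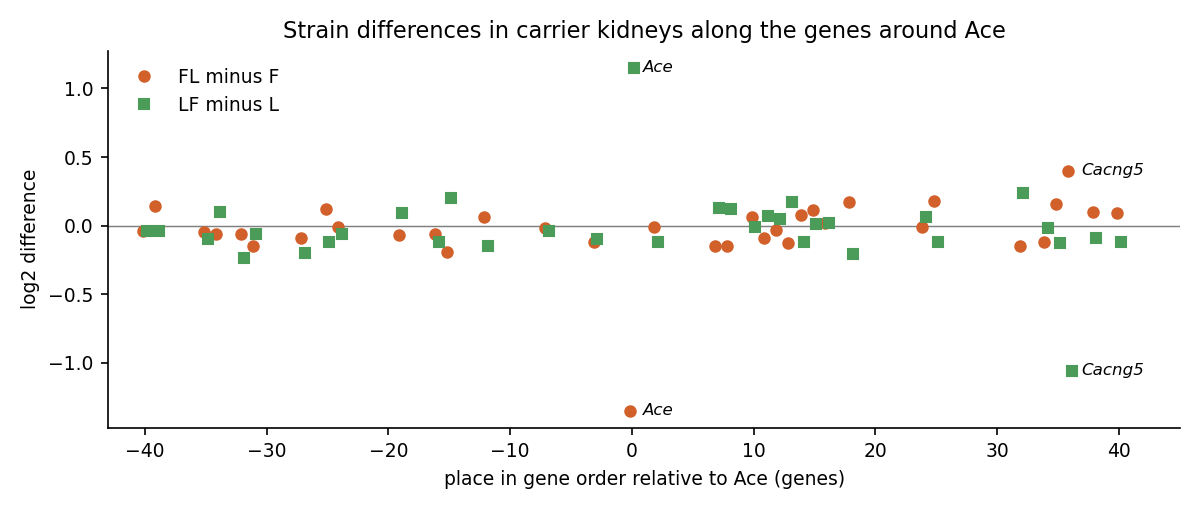
Log2 differences between strains in carrier kidneys for Ace and the 34 other measured genes within 40 places of it in gene order, with FL minus F as circles and LF minus L as squares. Ace stands at -1.35 and 1.15, and apart from Cacng5 (-1.06 in LF minus L) the neighbours lie close to 0 in both comparisons.

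Pitpnm1, which encodes a phosphatidylinositol transfer protein tied to membrane lipids, was lower in FL at day 0, and its difference was also below 0 after treatment. The F arrays had 7.50, 7.04, 6.87 and 7.42 and the FL arrays 6.50, 6.30, 6.22 and 6.09. No FL array reached the lowest F array. The difference was -0.93 ± 0.146 (adjusted p = 0.000638 in limma), a 1.91-fold lower signal, and it lay between -0.65 and -1.33 within the runs. It was -0.75 ± 0.146 at day 7 (adjusted p = 0.00649) and again -0.75 ± 0.146 at day 10 (adjusted p = 0.0431). The day 7 call was lost without FL replicate 3 (0.051) or 4 (0.0599), without F replicate 2 (0.0571) and with these groups alone (0.189). The day 10 call was lost without any one array other than F replicate 4 (0.0582 to 0.262) and with these groups alone (1). The carrier kidneys of L (7.42 to 7.75) and LF (7.41 to 7.62) lay level with F or above it, and LF minus L was -0.11 ± 0.146 (adjusted p = 0.997). Its difference between the strain pairs was -0.82 ± 0.206 (adjusted p = 0.132), so a difference particular to FL was not past the threshold. With the arrays of FL and F alone the adjusted p of Pitpnm1 was 0.146.

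Cyb5b, a cytochrome b5 of the outer mitochondrial membrane that passes electrons to other enzymes, was lower in FL at day 0. The F arrays were tightly grouped at 9.19, 9.17, 9.12 and 9.23, and the FL arrays lay lower and wider at 8.63, 8.39, 8.09 and 8.53. The difference was -0.77 ± 0.147 (adjusted p = 0.0104 in limma), a 1.70-fold lower signal. After 7 days it was -0.34 ± 0.147 (adjusted p = 0.357) and after 10 days -0.30 ± 0.147 (adjusted p = 0.998). The call was lost without FL replicate 3 (adjusted p = 0.128), without FL replicate 2 (0.0518), without F replicate 4 (0.0525) and with the arrays of FL and F alone (0.139).

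The 3 genes that were higher in FL all belong to the Atf4-linked stress response. Asns, which makes asparagine, had 5.04, 5.20, 5.31 and 5.22 in F and 6.71, 6.64, 6.27 and 5.48 in FL. FL lay above F by 1.67, 1.44 and 0.96 in the runs of replicates 1 to 3 and by 0.26 in that of replicate 4. The difference was 1.08 ± 0.177 (adjusted p = 0.00103 in limma), a 2.12-fold higher signal. Nupr1, a small chromatin protein induced by cell stress, had 7.75, 7.59, 7.78 and 8.19 in F and 9.12, 9.03, 8.95 and 8.34 in FL, a difference of 1.03 ± 0.211 (adjusted p = 0.0245). Atf5, a transcription factor of the same response, had 6.22, 6.22, 5.95 and 6.01 in F and 6.92, 7.09, 6.82 and 6.26 in FL, a difference of 0.67 ± 0.121 (adjusted p = 0.00476). For all 3 genes the FL arrays lay above every F array, and FL replicate 4 was the lowest of them.

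FL replicate 4 was not the lowest FL array in array spread or array median. The array spread, the SD over all probe sets of an array, was 2.41 in FL replicate 4. It was 2.48, 2.42 and 2.36 in FL replicates 1 to 3 and 2.44 to 2.47 in F. Array medians were 5.84 in FL replicate 4, 5.93, 5.84 and 5.74 in FL replicates 1 to 3, and 5.86 to 5.92 in F. FL replicate 3 thus had the lowest median and spread of the FL and F carrier arrays. Whether a property of the array of FL replicate 4 set its Asns, Nupr1 and Atf5 values was not tested. In a fit with the array spread as a covariate, Asns was at 1.16, Nupr1 at 1.12 and Atf5 at 0.70, all past the threshold. Without FL replicate 4, Asns was at 1.35, Nupr1 at 1.21 and Atf5 at 0.84. Nupr1 lost its call without any one of FL replicates 1, 2 and 3 or F replicates 1, 2 and 3 (adjusted p between 0.0886 and 0.189). Atf5 lost it without FL replicate 2 (0.0811) and F replicate 3 (0.0503). With the arrays of FL and F alone the adjusted p was 0.374 for Asns, 0.203 for Nupr1 and 0.486 for Atf5.

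The higher signals of these genes were seen in the carrier kidneys and not in those given indole-3-carbinol. FL minus F for Asns was -0.34 ± 0.177 after 7 days (adjusted p = 0.476) and 0.09 ± 0.177 after 10 days (adjusted p = 0.998). For Nupr1 it was -0.66 ± 0.211 and 0.24 ± 0.211 (adjusted p = 0.166 and 0.998), and for Atf5 0.02 ± 0.121 and -0.03 ± 0.121 (adjusted p = 0.949 and 0.998). The test of the change from day 0 to day 7 passed for Nupr1 (-1.69 ± 0.298, adjusted p = 0.00642) and Asns (-1.42 ± 0.251, adjusted p = 0.00642), among 5 of 8797 probe sets (0.0568%), all 5 lower. With the arrays of these 4 groups alone both calls were lost (adjusted p = 0.0747 for Nupr1 and 0.179 for Asns). For Atf5 it gave -0.65 ± 0.172 (adjusted p = 0.225). From day 0 to day 10 limma called 0 of 8797 probe sets (0%), 422 had an unadjusted p under 0.05, and 1 passed with array weights. The genes were picked at day 0, and the same day 0 arrays enter these tests, which were added after the data were seen.

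**Figure D4:**
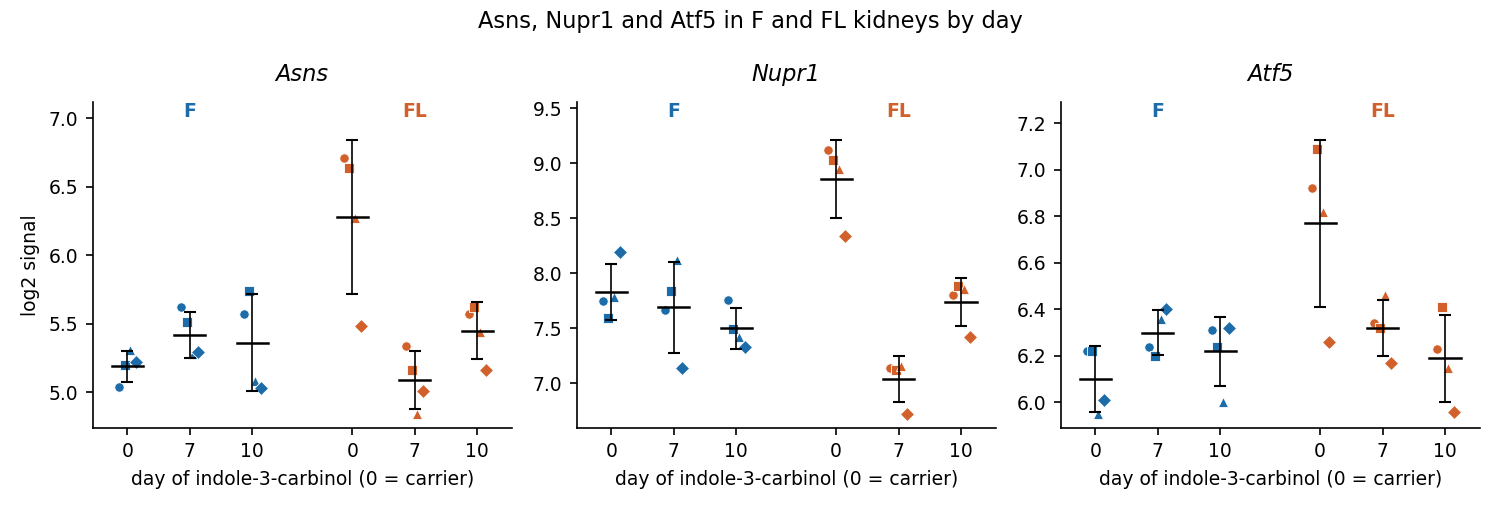
Log2 signal of Asns, Nupr1 and Atf5 in F (blue) and FL (orange) kidneys at day 0 (carrier) and after 7 and 10 days of indole-3-carbinol; symbols are replicates 1 to 4, lines means and bars 1 SD. The FL group at day 0 is the highest of the 6 groups in each panel, and its replicate 4 (diamond) is the lowest array of that group.

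In the carrier kidneys of the other strains Asns and Atf5 lay near F. Asns arrays of carrier kidneys lay between 5.01 and 5.55 in L and between 5.16 and 5.32 in LF, and Atf5 arrays between 5.84 and 6.18 in L and between 6.05 and 6.19 in LF. Nupr1 was different, because its arrays of L (8.16 to 8.85) and LF (8.23 to 8.66) overlapped those of FL. The difference between the strain pairs was 1.06 ± 0.251 for Asns, 1.24 ± 0.298 for Nupr1 and 0.60 ± 0.172 for Atf5 (adjusted p = 0.0996, 0.115 and 0.282), so it passed the threshold for none of these 3 genes in limma.

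Other Atf4-linked genes were close to equal in FL and F. Atf4 itself stood at 0.10 ± 0.143, Ddit3, the stress factor Chop, at -0.04 ± 0.151, Trib3, an inhibitor of the kinase Akt, at 0.07 ± 0.125, and Atf3 at -0.07 ± 0.216. The serine synthesis enzymes Phgdh and Psat1 stood at 0.01 ± 0.164 and 0.11 ± 0.13, and the amino acid transaminase Bcat1 at -0.14 ± 0.14. All 7 had adjusted p-values of at least 0.995, and they were looked up after Asns, Nupr1 and Atf5 had been seen. In the list of p53 and stress genes, 2 of 24 measured members were higher (Asns and Nupr1) and 0 lower, with a median of -0.066. Over all probe sets 0.0682% passed. Ddit4, a brake on the growth kinase mTor that Atf4 can also induce, went the other way without passing, with 7.27 to 7.71 in F and 6.42 to 6.86 in FL (-0.87 ± 0.215, adjusted p = 0.178).

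Promoter windows of these genes were searched for the composite element at which Atf4 and C/EBP factors bind together, TGATGNAA on either strand. A window was the 250 bases before and 50 after the annotated gene start. The Nupr1 promoter is shown because it was the only one of the 3 with a match, which is in capitals, lies 55 bases before the gene start and reads on the opposite strand. It is taken from RefSeq on the rat assembly GRCr8 (chr1:190645852-190646151, minus strand).
Nupr1: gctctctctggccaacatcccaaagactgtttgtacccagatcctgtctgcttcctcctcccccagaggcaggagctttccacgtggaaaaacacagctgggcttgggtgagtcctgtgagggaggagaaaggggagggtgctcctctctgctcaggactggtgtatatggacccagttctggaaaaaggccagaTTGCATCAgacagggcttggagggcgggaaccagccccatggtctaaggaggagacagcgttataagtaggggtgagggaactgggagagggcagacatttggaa
The same letters occurred in 3.98% of 33469 rat promoters of this length. The windows of Asns and Atf5 held 0 matches, and that of Trib3, whose signal was close to equal, held 1. Whether the annotated starts are those used in kidney was not tested. A window with 0 matches thus does not show that a gene's promoter lacks the element. A match describes letters only and shows no binding.

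A further 8 genes, chosen after their values were seen, had an adjusted p under 0.2 without passing the threshold. Retsat, a retinol saturase, and Rxrg, a retinoid receptor, were at 0.59 ± 0.136 and 0.67 ± 0.153 (adjusted p = 0.0905 for both). The Rxrg arrays were 4.85, 4.91, 4.96 and 4.62 in F and 5.46, 5.56, 5.60 and 5.39 in FL, with no overlap, and L (5.53 to 6.30) and LF (5.76 to 6.25) lay above F as well. Nxph4, a neurexophilin, was at 0.68 ± 0.171 (adjusted p = 0.193). Lower in value in FL were the leukocyte surface protein gene Cd48 (-0.65 ± 0.146), the monocyte chemokine gene Ccl2 (-0.65 ± 0.155), Tmem176b (-0.65 ± 0.16), Ddit4 and Akr1b10, with adjusted p-values between 0.0804 and 0.178. With the replicate block Retsat (adjusted p = 0.00859), Akr1b10 (0.0254), Cd48 (0.0439), Rxrg (0.048) and Tmem176b (0.048) passed the threshold.

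Akr1b10 had the most uneven values of these genes. Its F arrays read 8.43, 8.37, 8.11 and 8.17, whereas the FL arrays split, with 7.62 and 7.32 in replicates 1 and 3 and 5.80 and 5.72 in replicates 2 and 4 (-1.65 ± 0.413, adjusted p = 0.178). Akr1b8, the next gene on chromosome 4, also split, with the same replicates low. It read 6.61, 6.56, 6.19 and 6.68 in F, 6.42 and 5.87 in FL replicates 1 and 3, and 3.85 and 4.28 in replicates 2 and 4 (-1.41 ± 0.475, adjusted p = 0.774). For Akr1b8, replicates 1 and 3 thus lay nearer to F, and replicates 2 and 4 near L (4.09 to 4.63) and LF (3.78 to 4.66). For Akr1b10, replicates 1 and 3 lay between F and the other strains (6.14 to 7.06 in L and 6.10 to 6.78 in LF), and replicates 2 and 4 lay below every L and LF array. The genes are members of one family and alike in sequence, and whether their probes tell them apart was not tested.

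A few places further along chromosome 4, Tmem140, a membrane protein gene, and Cyren, a regulator of DNA end joining, also varied among the FL arrays. Cyren read 6.87 and 6.51 in FL replicates 1 and 3, 5.49 and 5.74 in replicates 2 and 4, and 5.55 to 5.79 in F. For Cyren it was replicates 1 and 3 that stood away from all other strains. Tmem140 read 8.70 and 7.82 in replicates 1 and 3 and 9.24 and 9.04 in replicates 2 and 4, beside 9.34 to 9.59 in F. By the SD among the FL arrays, Akr1b8 ranked 10, Akr1b10 24, Cyren 176 and Tmem140 188 of the 8797 probe sets. These genes were picked for that spread and their places, so the ranks are a description. At day 7 the FL arrays of Akr1b8 did not split (5.90 to 6.97), and at day 10 replicate 1 stood at 7.42 with the others between 3.83 and 4.65. The FL arrays of Cyren lay between 5.38 and 5.88 at day 7 and between 5.66 and 5.83 at day 10, with 5.69 in replicate 1. For Cyren the day 0 pattern was thus not seen on the later days. Akr1b7, of the same family as Akr1b8, had an SD of 0.234 among the FL carrier arrays and ranked 2661.

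**Figure D5:**
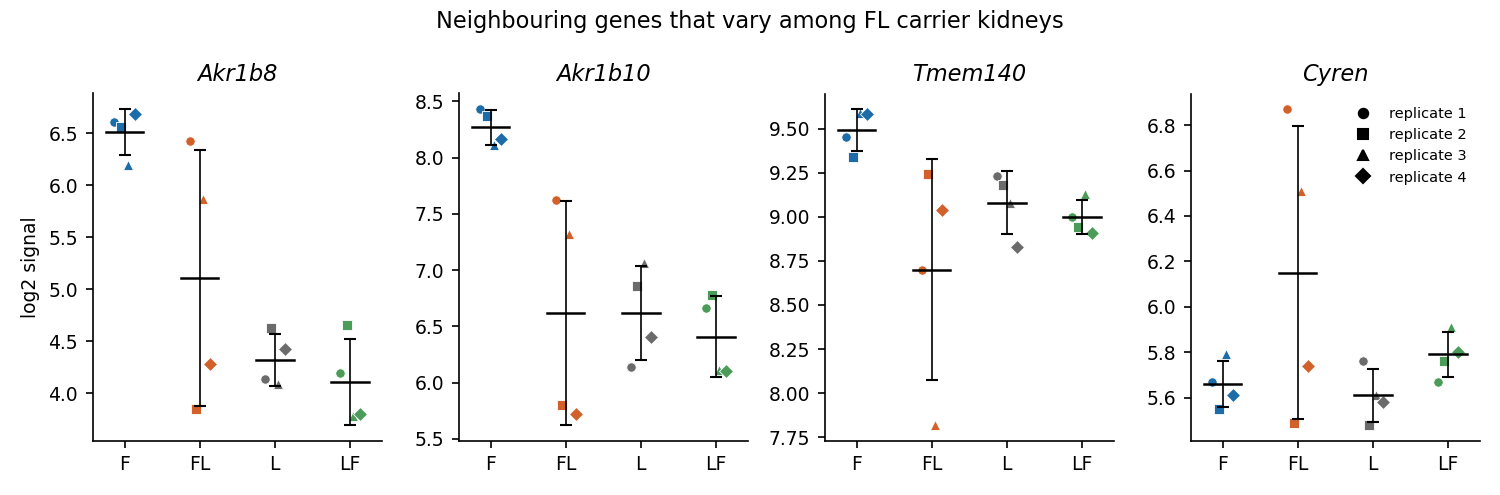
Log2 signal in carrier kidneys of F, FL, L and LF for Akr1b8, Akr1b10, Tmem140 and Cyren, which lie close together on chromosome 4; symbols are replicates 1 to 4, lines means and bars 1 SD. FL replicates 1 and 3 (circle, triangle) lie nearer to F for Akr1b8, and replicates 2 and 4 (square, diamond) lie near L and LF for Akr1b8 and below them for Akr1b10.

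By position, chromosome 4 held more small p-values than its number of genes. The 6 genes past the threshold lay on chromosomes 1 (Pitpnm1, Nupr1 and Atf5), 4 (Asns), 10 (Ace) and 19 (Cyb5b). At an unadjusted p under 0.01 chromosome 4 held 16 of 480 measured genes (3.33%), whereas the other chromosomes together held 58 of 7100 (0.817%). Chromosomes 19 (4 of 176, 2.27%) and X (4 of 204, 1.96%) came next, beside 0.976% over all chromosomes. Chromosome 4 was singled out because its share was the highest. No test of position was made, and genes that lie together are not independent. Of the 16, 11 were lower and 5 higher in FL, and 12 had the same sign of FL minus F at day 7 and 12 at day 10. The share of all genes that kept their sign was not counted. Besides Asns and the Akr1b genes the 16 included Retsat, Tmem176b, Suclg1, a subunit of the citric acid cycle enzyme succinyl-CoA ligase (-0.40 ± 0.108), Fam3c, a secreted protein (-0.42 ± 0.128), and Trpv5, the apical calcium channel of the distal nephron (-0.58 ± 0.189). Dim genes were also among them, namely Vom1r81 (1.82 to 2.76 in F), Vom1r82 (1.7 to 2.58) and Tas2r114 (2.38 to 2.69).

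On genes that differ between F and L, FL was mostly like F. A first choice used no day 0 arrays. For it F minus L was taken in the mean of days 7 and 10, where 476 of 8797 probe sets (5.41%) passed and 738 with the block. That gave 431 named genes, of which 171 also had F and L arrays that did not overlap at day 0, with the same sign. The share of all probe sets without such overlap was not counted. This second filter used the day 0 arrays of F and L, so the F arrays of this comparison helped to choose the 171 genes. On a scale where the L mean at day 0 is 0 and the F mean is 1, the median place of FL over these 171 genes was 0.91, with medians of 0.89, 0.92, 0.89 and 0.91 for its arrays. LF had a median of 0.07. FL lay nearer F for 145 genes and nearer L for 26, the F and L day 0 arrays setting the scale. Ace (0.16), Akr1b10, Akr1b8 (0.36), Retsat (0.36), Rxrg (0.37), Tmem176b and Ddit4 were among the 26. Igfbp1, an insulin-like growth factor binding protein (0.29), and Fga, a fibrinogen chain (0.07), were others. Ace, Akr1b10, Retsat, Rxrg, Tmem176b and Ddit4 had been named above for differing from F at an adjusted p under 0.2. Their places away from F thus follow in part from that choice.

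Over 32 lists of pathway and cell type genes, 661 genes were measured and 30 lists had 0 members past the threshold. Over all probe sets 6 of 8797 (0.0682%) passed, so a count of 0 in a list is near that share. List medians ran from -0.301 to 0.085, beside -0.040 over all probe sets, of which 61.9% lay below 0. Subtracting array medians or a second quantile normalization moved the median over all probe sets to 0.008 and 0.003. All FL arrays lay below all F arrays in 185 probe sets (2.10%) and above them in 77 (0.875%).

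The list median furthest below 0 was that of the interferon response, -0.301, with 19 of 22 measured members below 0. Ifi47, an interferon-induced GTPase, had 6.37 to 7.05 in F and 5.52 to 6.04 in FL without overlap, and a difference of -0.82 ± 0.234 (adjusted p = 0.525). The histocompatibility genes had a median of -0.234, with 19 of 22 below 0, among them RT1-Da, a class II chain (-0.51 ± 0.16, adjusted p = 0.718). The macrophage markers had a median of -0.175, with 16 of 18 below 0, and their mean level per array was 5.93 to 6.24 in F and 5.80 to 5.99 in FL. The part of white blood cells in these values was not tested. The macrophage marker Adgre1 stood at -0.16 ± 0.213 and the pan-leukocyte gene Ptprc at -0.17 ± 0.215.

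The cholesterol and fatty acid synthesis list had a median of -0.240, with 25 of 28 measured members below 0. Insig1, which holds back sterol synthesis, was at -0.49 ± 0.167 (adjusted p = 0.774) and the desaturase Scd2 at -0.63 ± 0.304. Insig1 read 8.56 and 8.63 in F replicates 1 and 2 and 9.41 and 9.35 in replicates 3 and 4, beside 8.38 to 8.63 in FL, so its difference came with the upper F arrays.

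Markers of the distal nephron had medians below 0, with none past the threshold. Among 23 measured markers of the loop and distal convoluted tubule, 20 lay below 0 with a median of -0.155, led by Trpv5, the calcium binding protein gene Calb1 (-0.75 ± 0.244, adjusted p = 0.751) and the sodium chloride cotransporter gene Slc12a3 (-0.30 ± 0.1, adjusted p = 0.774). Calb1 read 10.25, 10.87, 10.90 and 10.73 in F and 10.19, 9.69, 9.71 and 10.18 in FL, with no overlap. In replicate 1 FL minus F was -0.06 for Calb1, -0.12 for Trpv5 and -0.11 for Slc12a3, and in replicate 3 -1.19, -0.87 and -0.41. The mean level of this loop and distal list per array was 8.78 to 8.85 in F and 8.48 to 8.83 in FL, so the groups overlapped. In the collecting duct list 18 of 20 lay below 0 with a median of -0.139, among them the water channel genes Aqp3 (-0.31 ± 0.132) and Aqp4 (-0.51 ± 0.208). After the second quantile normalization 12 of the 20 lay below 0 with a median of -0.061, and the mean level of the list per array was 8.07 to 8.20 in F and 7.68 to 8.30 in FL, so the groups overlapped. The same step moved the median to -0.089 for the loop and distal convoluted tubule, -0.105 for the macrophage markers and -0.155 for the histocompatibility genes, and both rescalings left the medians of all 6 lists below 0. Proximal tubule markers had a median of -0.030, which turned to 0.018 and 0.006 under the rescalings, and podocyte markers one of 0.003.

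Markers of injury and of the treatment's target pathway did not pass the threshold. Havcr1, shed by damaged proximal tubules, read 3.63 to 4.00 in F and 3.55 to 3.97 in FL (-0.06 ± 0.542), and the injury markers as a list had a median of -0.095, with 0 of 28 past the threshold. Lcn2, a secreted marker of tubular damage, read 4.42 to 4.61 in F and 4.69 or more in FL, without overlap (0.30 ± 0.205, adjusted p = 0.995). Cyp1a1, the classic target of the aryl hydrocarbon receptor, overlapped at 3.84 to 4.75 and 4.09 to 5.03 (0.22 ± 0.434, adjusted p = 0.995). The 95% interval of its difference, -0.66 to 1.10, spans changes of about 1 log2 unit. The SEs here pool all 12 groups, and the more variable treated kidneys widen them for these 3 genes. The SD of Cyp1a1 was 1.44 in F at day 7, beside 0.374 in F and 0.397 in FL at day 0. That of Havcr1 was 1.47 in L at day 10, beside 0.183 and 0.21 in F and FL at day 0. For Lcn2 it was 0.608 in L at day 10, beside 0.0881 and 0.135. None of the 15 measured AhR and Nrf2 targets passed, with a median of 0.025. Counts of 0 among 28 or 15 genes are near the 0.0682% of all probe sets that passed.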

How the data were processed

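The assay was a whole-transcript array of total kidney RNA. Per the labels' protocols, Trizol extracts were cleaned with DNase and a column, 1 µg was depleted of ribosomal RNA, and the sense-strand target was biotinylated. The deposited values are log2 signals per probe set. RMA and limma are named in the submitters' processing notes, with no version or role, and the genome build is not given in the sources used here. The table had 8797 probe sets, 0 missing values, 0 columns of unknown sample and 0 identical arrays. Of the probe sets, 7603 carried 1 gene symbol, 409 several and 785 none. Symbols were updated by Entrez identifier for 7584 probe sets with the RefSeq gene table of GRCr8, giving 7589 named genes. For genes with several probe sets the brightest over all arrays was used.

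Group means of the 12 groups (48 arrays) were estimated with limma 3.58.1 in R 4.3.3 (36 residual and 3.69 prior degrees of freedom), and p-values were adjusted over all probe sets. The fit was tested on simulated data with planted changes. Changes with day and F minus L were added after the data were seen. Alternatives were the replicate block, the compared groups alone, array weights, the array spread as covariate, 2 rescalings, a filter on dim probe sets, a trended robust prior, averaging the probe sets of a gene, and each array left out.

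Array file names in the labels share a stem among the 12 arrays of one replicate number, which was taken as a run. Deviations from the group means correlated between same-numbered FL and F arrays by 0.076, -0.01, 0.17 and 0.089. The highest values with an F array of another number were 0.1, 0.077, 0.046 and -0.0055 for FL replicates 1 to 4. For replicates 1 and 2 these lay above the same-number value.

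Named genes were all 6 past the threshold, Ace, Agt, Agtr1a, Cyp1a1, Havcr1 and Lcn2, the measured genes within 10 places of Ace in the full gene table, and up to 4 members of each list described, by smallest p. An item withheld for evaluation is not reported here. Others were chosen after their values were seen. The comparison, the rule and the 32 lists (1109 genes) were chosen with earlier results of these data known.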

Additional observations from a re-analysis of the deposited data

Results flagged for a closer look

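Among 29 genes of the report, each checked in both carrier groups, 1 of 58 groups held an array that stood apart by Dixon's criterion, and chance gives about 1 in 20. It was Kcnh6, a gene near Ace, with 3.46 in F replicate 4 beside 3.88 to 3.91 in the other F arrays.

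Differences that changed between strain pairs or days were called by limma's test of the change itself. Between the strain pairs FL against F and LF against L, these were Ace (-2.50, adjusted p = 7.32e-10) and Ndrg1 (0.74, adjusted p = 0.00682). From day 0 to day 7 of indole-3-carbinol, FL minus F changed by -1.69 for Nupr1 and -1.42 for Asns (adjusted p = 0.00642 for both), by -1.12 for the clock gene Per2 (0.00682), by -1.02 for the chaperone gene Dnajc28 (0.0358) and by -0.77 for Igfbp4, a growth factor binding protein gene (0.0498). For Per2, Dnajc28 and Igfbp4 FL minus F was 0.29, 0.13 and 0.26 at day 0, none past the threshold, and -0.82, -0.88 and -0.50 at day 7. At day 0 FL lay above F within all 4 runs for Per2 and Igfbp4 and within 1 for Dnajc28. With the arrays of the compared groups alone the calls of Ndrg1 (adjusted p = 0.0738), Nupr1 (0.0747), Asns (0.179), Per2 (0.0747), Dnajc28 (0.212) and Igfbp4 (0.157) were lost. Leaving out 1 array ended those of Dnajc28 in 10 of 16 cases and of Igfbp4 in 12 of 16, and the call of Igfbp4 was also lost with array medians subtracted (0.103) and after a second quantile normalization (0.151).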

How the results depend on the processing

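FL minus F at day 0 gave 11 calls with the replicate block, 15 with array weights, 10 with array medians subtracted, 10 after a second quantile normalization and 1 with the compared groups alone, and from 4 (without FL replicate 2) to 8 (without FL replicate 4) with 1 array left out. At day 7 the count of 58 was 189 with the block, 194 with array weights, 7 with the compared groups alone and 13 to 98 with 1 array left out, highest without FL replicate 1 and at most 29 without FL replicate 2, 3 or 4 or F replicate 1, 2 or 3. At day 10 the count of 2 was 5 with the block, 6 with array weights, 11 with the spread as covariate, 6 after quantile normalization, 3 with medians subtracted, 0 with the compared groups alone and 0 to 3 with 1 array left out. For LF minus L the 17 became 30, 36, 58, 44, 36 and 8 under the same settings in the same order, and 14 to 19. For the difference between the strain pairs the 2 became 17, 19, 20, 16, 13 and 4, and 2 to 6, with 6 without FL replicate 4 or F replicate 1 and 4 without replicate 3 of LF or L. The change to day 7 gave 15 with array weights, 1 with the compared groups alone and 3 to 10 with 1 array left out, beside 5. It was 10 without FL day 0 replicate 4 and 3 without FL day 0 replicates 1 or 3, F day 0 replicates 2 or 4, or replicate 3 of FL or F at day 7. The change to day 10 gave 1 with array weights and 0 to 2, with 2 without FL day 0 replicate 4. F minus L gave 738 with the block, 857 with the spread as covariate, 804 after quantile normalization and 378 to 577 with 1 array left out, beside 476. The filter on dim probe sets, the trended robust prior and averaging the probe sets of a gene kept all these counts within 1.5 times. The cause of these changes was not tested, apart from the smaller number of arrays where groups or arrays were left out. No difference of a gene checked across these settings changed its sign after passing the threshold, and the block ended the call of none of the 6 genes. Dim signals, such as those of Havcr1 and Kcnh6, limit what the arrays can show.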
